A study of Homo sapiens with 5 samples.

Results

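The genes described here are 7 members of the RAS, RAF and ERK cascade, chosen by symbol: NRAS, HRAS, BRAF, MAP2K1, MAP2K2, MAPK3 and DUSP6. All 7 were listed among the 27189 genes measured in each library. They were followed through 5 RNA-seq libraries of HT1080, a human fibrosarcoma line, embedded in 3D type I collagen at 2 mg per ml and kept there for 24 h. LD was the untreated low-density matrix, seeded at 10 cells per cubic mm. The IL-6 and IL-8 libraries came from matrices of the same density given recombinant IL-6 or recombinant IL-8, and RM from matrices of the same density given both cytokines at a ratio of 5 to 2. HD was untreated and seeded at 50 cells per cubic mm. Each condition was sequenced as 1 library, so no difference below could be set against a spread between replicates and no test of a condition was possible.

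RAS proteins are membrane-bound switches that are active when loaded with GTP. Active RAS recruits a RAF kinase, RAF phosphorylates the MEK kinases, and MEK phosphorylates the ERK kinases, which act on cytoplasmic substrates and on transcription factors. DUSP6 is a phosphatase that removes the activating phosphates from ERK, and its transcript is known to follow ERK activity. HT1080 carries an activated NRAS allele, and the counts of NRAS do not separate that allele from the other one. The levels reported are those of transcripts and not of protein or phosphorylated kinase. In bulk RNA, fewer cells of a type and less RNA per cell cannot be told apart.

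The libraries held between 926376 reads in HD and 7118545 in LD. RNA5-8S5, an entry for ribosomal RNA, held 51.5 to 79.6% of them, leaving 449661 to 1645539 reads for all other genes. Reads on the 7 cascade genes came to 1268 in LD, 996 with IL-6, 708 with IL-8, 1080 with RM and 73 for HD. HD stood apart from the other 4 libraries. It had reads on 20113 genes against 13469 to 15080 in the low-density libraries, and it held the highest level of the 5 in 65.1% of the 21163 genes that reached 1 TPM in any library. TPM is a level corrected for transcript length and scaled to 1000000 per library. The mesenchymal marker VIM, an intermediate filament gene, stood at 1941 to 3676 TPM in the low-density libraries and at 413 TPM in HD. The mesenchymal markers FN1, MMP14 and CD44 were also lowest in HD. TGFBI was not, at 39.3 TPM in HD, 31.3 in IL-8 and 32.5 in RM. Of the 9 markers of epithelial, leukocyte and endothelial cells, 5, among them EPCAM, ESRP1, CD3E and VWF, had 0 reads in all 4 low-density libraries, and all 9 had between 1 and 43 reads in HD. The part of these reads in the HD values was not tested, and results from the low-density libraries are therefore given apart from HD throughout.

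The reads were 50 bases long, so the similarity of the cascade paralogs bears on how far their levels can be separated. Coding windows are shown for that reason, and to mark the sites through which the cascade acts, from GENCODE 29 transcripts on GRCh38, 5′ to 3′ on the strand of the gene. For the RAS genes the window is the end of the coding sequence in exon 5, at chr1:114708535-114708594 for NRAS and chr11:532636-532695 for HRAS, both on the minus strand. The capitals mark the cysteine codon that receives the farnesyl lipid.
NRAS: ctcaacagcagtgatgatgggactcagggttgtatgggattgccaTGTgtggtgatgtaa
HRAS: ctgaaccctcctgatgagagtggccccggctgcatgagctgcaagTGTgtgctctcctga

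At the coding end 29 of 60 bases differed. Over the whole coding sequence NRAS and HRAS shared 73% of bases, and no run of 50 bases in either transcript occurred in a transcript of another gene. The MEK activation loop was more alike. It lies in exon 6 of both genes, at chr15:66481814-66481873 on the plus strand for MAP2K1 and at chr19:4101025-4101084 on the minus strand for MAP2K2. The capitals mark the serine codons that RAF phosphorylates.
MAP2K1: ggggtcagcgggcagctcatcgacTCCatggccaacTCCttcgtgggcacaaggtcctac
MAP2K2: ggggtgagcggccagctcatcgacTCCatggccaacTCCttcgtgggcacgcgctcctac

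Only 5 of these 60 bases differed, and 38 bases in a row were identical, which is still shorter than a read. The activation loop of ERK1 lies in exon 4 of MAPK3, at chr16:30118068-30118127 on the minus strand. The capitals mark the threonine and tyrosine codons that MEK phosphorylates.
MAPK3: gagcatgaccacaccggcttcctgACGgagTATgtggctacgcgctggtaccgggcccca

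The catalytic signature of DUSP6, the site that strips the phosphates from ERK, lies in exon 3 at chr12:89349485-89349544 on the minus strand. The capitals mark its cysteine and arginine codons.
DUSP6: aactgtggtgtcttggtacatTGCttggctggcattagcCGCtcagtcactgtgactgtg

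Some transcripts did share 50-base runs with other genes of the annotation. The share was 0% for NRAS, HRAS and MAPK3, 7.36% for BRAF, which shares runs with the pseudogene BRAFP1, 9.97% for MAP2K1 and 15.7% for MAP2K2, which shares runs with the entry AC011005.1. It was 36.4% for DUSP6, which overlaps 1643 exon bases of the antisense entry AC024909.2. MAP2K1 overlaps 216 exon bases of SNAPC5 on the other strand, and SNAPC5 was listed at 0 in all 5 libraries. Whether reads were assigned by strand is not given in the sources used here, so reads of DUSP6 and MAP2K1 cannot be told apart from those of their antisense partners.

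NRAS had the lower transcript level of the RAS genes chosen, and it was lower in each cytokine library than in LD. It lies on chromosome 1 from 114704469 to 114716894 on the minus strand. The NRAS level was 12.7 TPM in LD from 80 reads, 6.96 TPM in IL-6 from 30 reads, 4.7 TPM in IL-8 from 23 reads, 3.60 TPM in RM from 22 reads and 8.90 TPM in HD from 10 reads. The exact 95% count interval, which covers counting error only, was 10.1 to 15.9 TPM in LD and 2.25 to 5.45 TPM in RM. LD therefore lay above all 3 cytokine libraries by more than counting error, while neighbours in the order from LD through HD and IL-6 to IL-8 and then RM could not be told apart at this depth. The NRAS level in LD was 3.54 times that in RM (95% count interval 2.19 to 5.97). Reads that come from amplified cDNA are not independent molecules, so such intervals are too narrow as a measure of repeatability.

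HRAS, the other RAS member, stood far above NRAS per transcript length in every library. The gene lies on chromosome 11 from 532242 to 537287 on the minus strand. The HRAS level was 332 TPM in LD from 460 reads, 380 TPM in IL-6 from 366 reads, 202 TPM in IL-8 from 220 reads, 303 TPM in RM from 436 reads and 50 TPM in HD from 12 reads. LD, IL-6 and RM were close together and IL-8 and HD were lower. IL-6 and LD, and LD and RM, did not differ beyond counting error as neighbours in the order, while RM was 1.5 times IL-8 (1.27 to 1.77) and IL-8 was 4.05 times HD (2.27 to 7.96).

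BRAF, the RAF kinase member, was measured from few reads. It lies on chromosome 7 from 140719327 to 140924928 on the minus strand. The BRAF level was 1.46 TPM in LD from 6 reads, 5.68 TPM in IL-6 from 16 reads, 0.654 TPM in IL-8 from 2 reads, 0.255 TPM in RM from 1 read and 0.321 TPM in HD from 1 read. Only IL-6 stood out, at 3.89 times LD (1.44 to 12.1). ARAF, another RAF kinase, was higher than BRAF in all 5 libraries. It stood at 24.9 TPM in LD, 22.5 with IL-6, 47.4 with IL-8, 6.88 with RM and 6.82 for HD.

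MAP2K1, which encodes MEK1, had its lowest level of the 5 libraries in RM. Its position is chromosome 15 from 66386817 to 66492312 on the plus strand. The MAP2K1 level was 15.6 TPM in LD from 56 reads, 17.1 TPM in IL-6 from 40 reads, 11.2 TPM in IL-8 from 29 reads, 2.32 TPM in RM from 7 reads and 10.2 TPM in HD from 6 reads. The first 3 and HD could not be told apart as neighbours in the order, and RM lay below each of them. HD was 4.41 times RM (1.23 to 15.3) on 6 against 7 reads, and LD was 6.71 times RM (3.05 to 17.4).

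MAP2K2, which encodes MEK2, held nearly level across the low-density libraries on the TPM scale, and less so under 2 other scalings given below. The gene is on chromosome 19 from 4090321 to 4124129 on the minus strand. The MAP2K2 level was 182 TPM in LD from 428 reads, 244 TPM in IL-6 from 395 reads, 181 TPM in IL-8 from 317 reads, 231 TPM in RM from 526 reads and 75.5 TPM in HD from 31 reads. IL-6 and RM formed a higher pair and LD and IL-8 a lower pair, with RM 1.27 times LD (1.12 to 1.45), and HD was below all of them.

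MAPK3, which encodes ERK1, was highest in LD and IL-6. It lies on chromosome 16 from 30114105 to 30123506 on the minus strand. The MAPK3 level was 99.1 TPM in LD from 238 reads, 86.6 TPM in IL-6 from 148 reads, 65.1 TPM in IL-8 from 117 reads, 35.7 TPM in RM from 88 reads and 6.54 TPM in HD from 3 reads. Apart from LD and IL-6, every neighbouring pair in this order differed beyond counting error. LD was 2.77 times RM (2.16 to 3.58) and 15.2 times HD (5.13 to 74).

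DUSP6, the ERK phosphatase, was close to undetected at low density. Its position is chromosome 12 from 89347232 to 89353271 on the minus strand. It had 0 reads in LD, IL-8 and RM, 1 read in IL-6, corresponding to 0.440 TPM, and 10 reads in HD, corresponding to 17.9 TPM. The 95% count interval of the HD level was 8.6 to 33 TPM. A floor of 3 reads in a library is 0.911 TPM in LD. The HD level of 17.9 TPM was 19.7 times that floor, 14.7 times the floor in IL-8 and 19 times the floor in RM. Those ratios leave out the counting error in HD. A count of 0 allows a level up to that floor, so the absence of DUSP6 reads does not show that the gene was silent. The higher DUSP6 level was in the library that also held the marker reads of other cell types, and of the 11537 genes with at most 1 read in each low-density library, 48.5% had at least 1 read and 7.33% at least 10 reads in HD. The part of these in the DUSP6 reads was not tested.

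**Figure D1:**
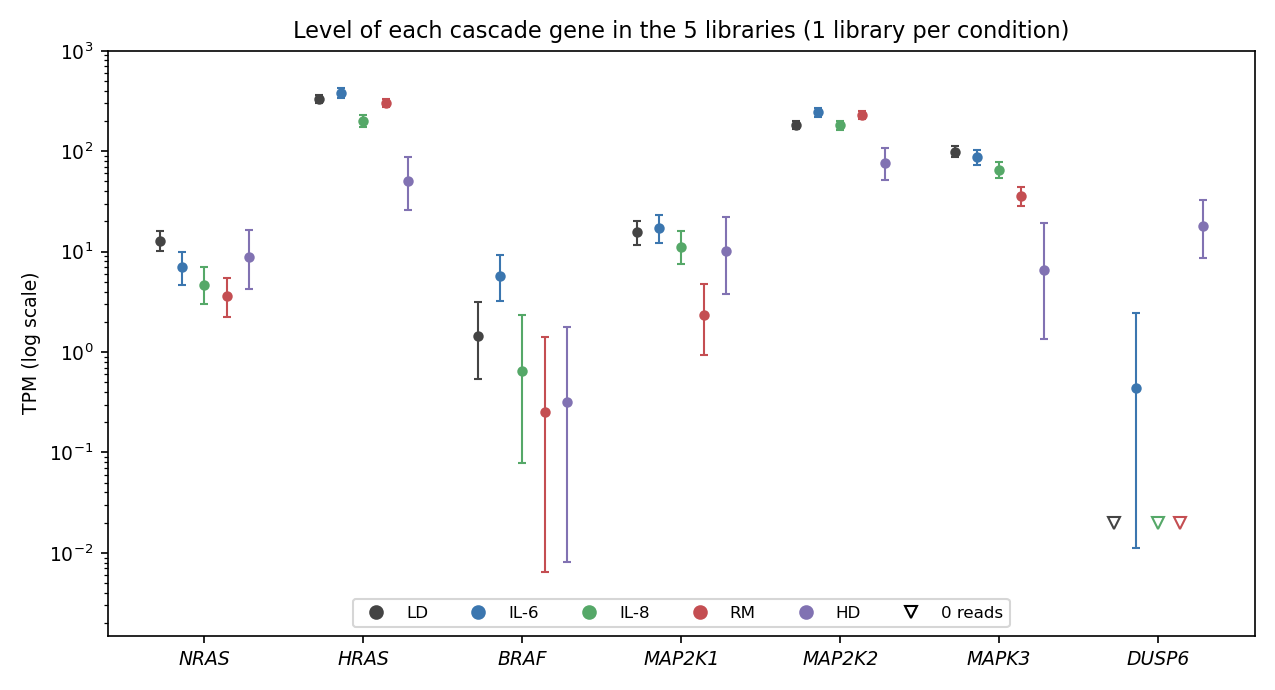
Level of the 7 cascade genes in TPM on a log axis, with 1 point for each of the 5 libraries and bars for the exact 95% count interval; open triangles at the bottom stand for 0 reads. HRAS and MAP2K2 sit between 181 and 380 TPM in the low-density libraries, above MAPK3 and far above NRAS, MAP2K1 and BRAF, and DUSP6 has a clear level in HD alone.

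Across the 4 low-density libraries the cascade genes differed in how far their levels ranged. These ranges hold for the TPM scale, and the other scalings used below shift the libraries against each other. MAP2K2 ranged least of the 6 that had at least 1 read in all of them, with a highest level 1.35 times the lowest, and 74.8% of genes tested had at least that range. HRAS ranged 1.88-fold, MAPK3 2.77-fold and NRAS 3.54-fold, ranges that 56.5, 34.4 and 29.7% of genes tested reached on the log2(TPM + 1) scale. MAP2K1 ranged 7.37-fold from RM to IL-6, a range that 10.6% of genes reached, and BRAF 22.2-fold on 1 to 16 reads. In LD the HRAS level lay above 98.4% of genes tested, MAP2K2 above 97.0%, MAPK3 above 94.7%, MAP2K1 above 79.3%, NRAS above 76.8% and BRAF above 49.4%. The genes tested include those, such as DUSP6, that reached 1 TPM in HD alone. Such genes lay below 1 TPM at low density, and no percentage was taken without them.

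To compare the libraries, differences were taken on the log2(TPM + 1) scale, on which small levels change less than their ratio, and a difference of at least 1 unit was counted as called. LD is the reference of 4 comparisons, which therefore share its sampling error. Between IL-6 and LD, 1 of the 7 cascade genes was called, against 17.3% of the 21163 genes tested, 9.84% higher and 7.47% lower. It was BRAF, at 1.44 units higher in IL-6. NRAS was lower in IL-6 by 0.79 units and MAP2K2 higher by 0.42, and both ratios excluded 1 by their count intervals without reaching the threshold. HRAS, MAP2K1 and MAPK3 lay within 0.19 units of LD. All 7 kept their direction with median-ratio and TMM scaling, which divide each library by a factor set on the bulk of its genes, and BRAF stayed called at 1.38 and 1.39 units. Of the 5 genes with at least 10 reads in both libraries 0 were called, against 13.3% of all such genes.

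Between IL-8 and LD, 1 of the 7 was called, against 24.4% of genes tested, 7.99% higher and 16.4% lower. NRAS in LD was 2.71 times that in IL-8 (1.69 to 4.52), a difference of -1.27 units. HRAS at -0.71 units and MAPK3 at -0.60 units were also below LD beyond counting error on the TPM scale, but moved to -0.27 and -0.15 units with median-ratio scaling and to -0.37 and -0.26 with TMM. The difference of MAP2K2 was -0.01 units and became 0.44 with median-ratio scaling and 0.33 with TMM scaling, so it had no settled direction. With these scalings NRAS kept its direction, at -0.88 and -0.98 units, and was no longer called. The split over all genes tested became 12.1% higher and 10.7% lower with median-ratio scaling, and 11.3% and 12.3% with TMM. Of the 5 cascade genes with at least 10 reads in both libraries 1 was called, against 27% of all such genes.

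Between RM and LD, 3 of the 7 were called, all lower in RM. Among all genes tested 26.8% were called, 20.4% lower and 6.44% higher. The 3 were NRAS at -1.58 units, MAP2K1 at -2.32 and MAPK3 at -1.45. As single genes these were not extreme, since 9.36% of genes tested were as low or lower than NRAS, 3.26% than MAP2K1 and 11.4% than MAPK3. BRAF differed by -0.97 units on 1 against 6 reads, and its count interval included 1. It reached -1.16 units when TPM was rescaled without RNA5-8S5. HRAS stood at -0.13 units but at 0.60 with median-ratio scaling and 0.44 with TMM scaling, so its direction turned with the scaling. MAP2K2 was higher in RM by 0.34 units, and by 1.07 and 0.92 under the same scalings, the first of which is a call.

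The choice of scaling moved the median of the 7065 genes with at least 10 reads in both libraries from -0.42 to 0.25 units with median-ratio scaling and to 0.10 with TMM scaling. The split of calls over all genes tested became 12.9% higher and 11.4% lower with median-ratio scaling, and 11.3% higher and 13.4% lower with TMM. NRAS, MAP2K1 and MAPK3 stayed below LD under both. MAP2K1 remained called, at -1.75 and -1.89 units. NRAS was at -0.97 and -1.11 units and MAPK3 at -0.73 and -0.88, so of these 2 scalings TMM alone left NRAS called, and neither left MAPK3 called. The count of called cascade genes was then 1 higher, MAP2K2, and 1 lower, MAP2K1, with median-ratio scaling, and 2 lower with TMM. Of the 4 cascade genes with at least 10 reads in both libraries, NRAS and MAPK3 were called, against 34.4% of all such genes.

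RM was also set against each cytokine alone. Against IL-6, 3 of the 7 were called lower in RM, BRAF at -2.41 units, MAP2K1 at -2.45 and MAPK3 at -1.25, where 29% of genes tested were called, 6.34% higher and 22.7% lower. With median-ratio and TMM scaling the split over all genes tested was 12.5% against 12.6% and 11.4% against 14.4%, MAPK3 lost its call at -0.51 and -0.63 units, and HRAS and MAP2K2 turned from -0.33 and -0.08 units to values above 0. Against IL-8, MAP2K1 alone was called, at -1.88 units, where 24.8% of genes tested were called, 9.87% higher and 14.9% lower. The latter split became 13.5% against 13.4% with median-ratio scaling and 13.1% against 13.9% with TMM. MAP2K1 was thus the cascade gene that passed the threshold in RM against all 3 of the other low-density libraries, on 7 reads in RM. Its differences were -1.75, -1.85 and -1.72 units from LD, IL-6 and IL-8 with median-ratio scaling, and -1.89, -1.97 and -1.77 with TMM. RM lay below each of the 3 by any amount in 27.8% of genes tested, and NRAS, BRAF and MAPK3 also met that looser criterion. The share of all genes called in RM against all 3 was not counted. Of the 4 cascade genes with at least 10 reads in both libraries, which leaves MAP2K1 out, 1 was called against IL-6 and 0 against IL-8, where 35.1% and 31.1% of all such genes were called.

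Between HD and LD, 4 of the 7 were called, against 79.7% of genes tested. DUSP6 was higher by 4.24 units, where 61.9% of genes tested were called higher. It passed the filter of 1 TPM through HD alone. With 0 reads in LD, passing in that way is enough for a call, so the call carries no separate weight. HRAS at -2.71 units, MAP2K2 at -1.26 and MAPK3 at -3.73 were lower, where 17.9% were called lower and the median of all genes tested was 1.86 units. That background depends on the filter. Among the 7916 genes that reached 1 TPM in all 5 libraries, the median was -0.30 units, and 28.7% were called higher and 36.2% lower. Of the 5 cascade genes among them, 0 were called higher and 3 lower. NRAS at -0.47, MAP2K1 at -0.56 and BRAF at -0.90 units did not reach the threshold, and BRAF turned to 0.17 units on the CPM scale, which divides reads by the library total alone and on which MAP2K2 lost its call at -0.83 units. With TMM scaling, under which the median of all genes tested was 0.93 units and 48.6% of them were called higher and 27.3% lower, all 7 were called, 6 of them lower. NRAS was then at -1.55, MAP2K1 at -1.66 and BRAF at -1.12 units. Only NRAS, HRAS and MAP2K2 had at least 10 reads in both libraries, and 2 of these 3 were called, against 69.2% of all such genes. Cell density, the shallow depth of HD and its many low-count genes cannot be told apart here.

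**Figure D2:**
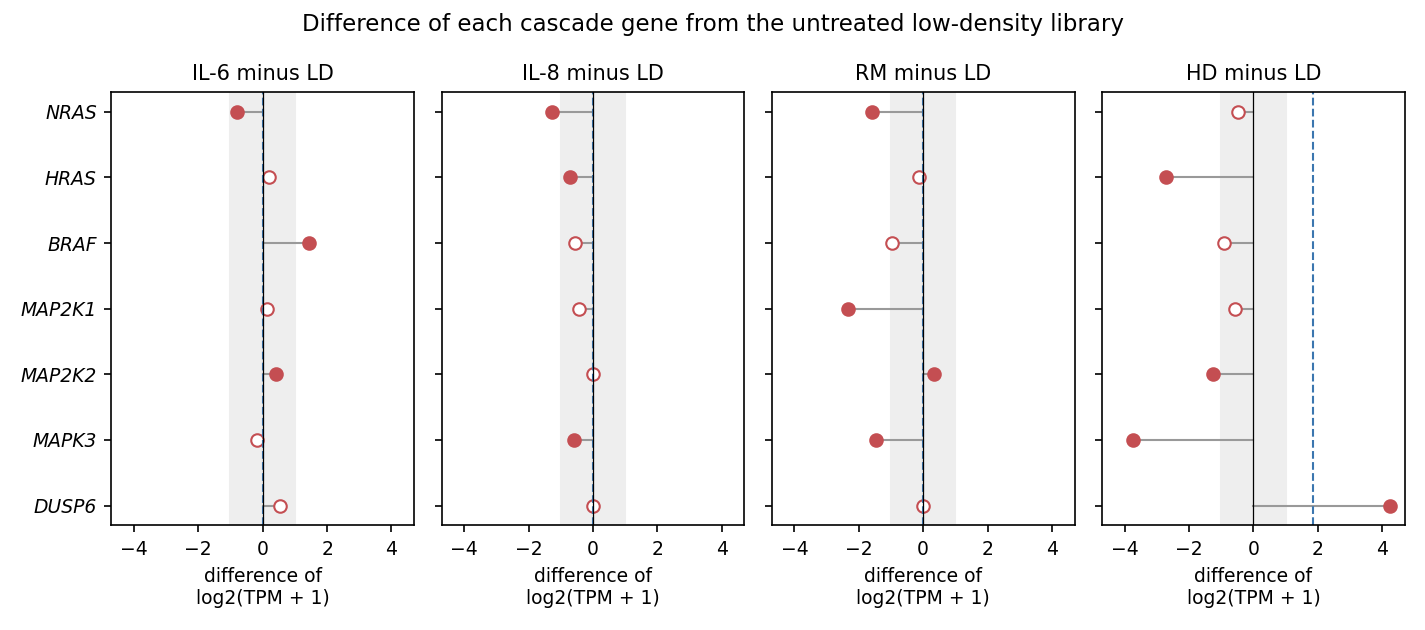
Difference of each cascade gene from LD in log2(TPM + 1) units, in 1 panel for each of the 4 other libraries; filled points have a 95% count interval of the ratio that excludes 1, grey marks the band of less than 1 unit and the dashed line the median of all genes tested. MAP2K1 at -2.32 is the point farthest from 0 in the RM panel, and in the HD panel all genes except DUSP6 lie to the left of the median of 1.86. Over genes that reached 1 TPM in all 5 libraries the HD median was -0.30.

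Ratios between paralogs within a library do not depend on the scaling between libraries. HRAS made up 96.3% of the summed TPM of NRAS and HRAS in LD (95% exact binomial interval 95.4 to 97.1%), 98.2% with IL-6, 97.7% with IL-8, 98.8% with RM and 84.9% for HD (69 to 93.5%). The share was lowest in HD. As an odds ratio of the read counts, HRAS against NRAS in RM was 3.44 times that in LD (2.08 to 5.91), in IL-6 2.12 times (1.34 to 3.42), in IL-8 1.66 times (1 to 2.85) and in HD 0.210 times (0.0799 to 0.561). RM was 2.07 times IL-8 (1.08 to 3.99) and 1.62 times IL-6, with an interval of 0.888 to 3.01 that includes 1.

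MAP2K2 made up 92.1% of the MEK transcripts in LD (89.8 to 94%), 93.4% with IL-6, 94.2% with IL-8, 99% with RM (98 to 99.6%) and 88.1% for HD (75.2 to 95.6%). RM was the library that stood apart. The odds of MAP2K2 against MAP2K1 in RM were 9.81 times those in LD (4.40 to 25.8), 7.60 times those in IL-6 (3.32 to 20.3) and 6.86 times those in IL-8 (2.90 to 18.8), while the intervals for IL-6, IL-8 and HD against LD included 1. The low MAP2K1 share in RM therefore did not depend on how the libraries were scaled, although it rests on 7 reads and has no replicate.

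**Figure D3:**
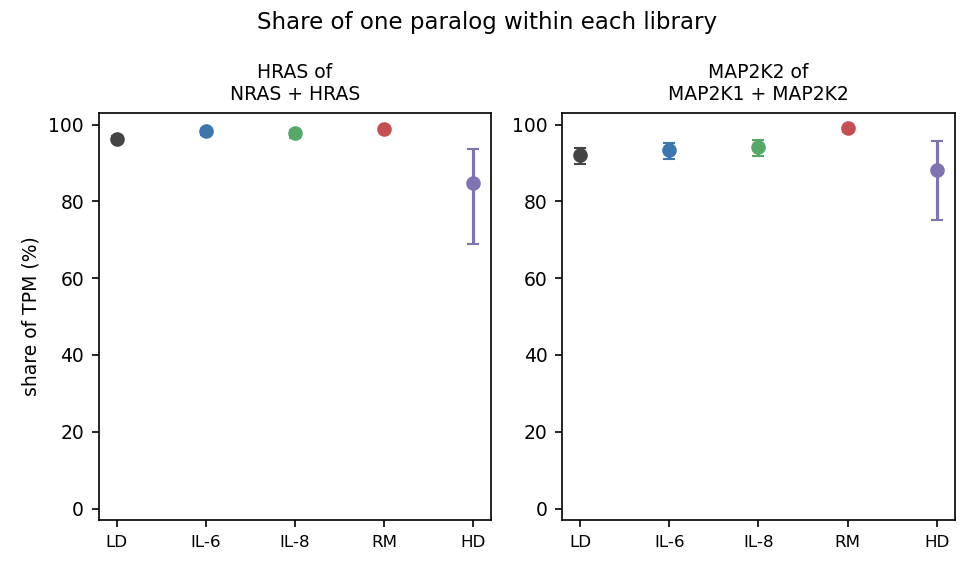
Share of 1 paralog in the summed TPM of its family, in percent, for each of the 5 libraries with exact 95% binomial intervals. HRAS and MAP2K2 exceed 92% in all 4 low-density libraries, MAP2K2 reaches 99% in RM, and the wide bars in HD reflect its few reads.

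The levels also sorted with the base composition and the length of the transcripts. HRAS, MAP2K2 and MAPK3, with 65.2, 65.5 and 61.8% G and C, were the 3 highest of the 7 in each low-density library, and NRAS, BRAF, DUSP6 and MAP2K1, with 38.4, 45.7, 46.7 and 50.4%, were the lower ones. The same 3 have the shortest transcripts, of 1151, 1734 and 1861 bases, against 2549 for BRAF, 3410 for MAP2K1, 4400 for DUSP6 and 4449 for NRAS. Over the 17371 tested genes matched to a transcript (82.1%), the median difference of RM from LD was -0.29 units in the tertile lowest in G and C, -0.06 in the middle tertile and 0.00 in the highest. By length it was 0.00 units in the shortest tertile, -0.11 in the middle one and -0.28 in the longest. By base composition NRAS falls in the lowest tertile and MAP2K1 in the middle one, and both were below LD in RM by more than those medians, while MAPK3, also below LD, falls in the highest. In HD against LD, HRAS, MAP2K2 and MAPK3 were the 3 called lower. The genes called lower in HD made up 17, 18.8 and 24.3% of the tertiles from lowest to highest in G and C. By length they made up 24.7, 19.8 and 15.7% from the shortest tertile to the longest. Base composition and length cannot be told apart in these 7 genes, and their part in the differences was not tested.

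Beyond the 7 genes, 57 other genes of the pathway were examined by role. Between RM and LD, 22 of the 57 were called, 3 higher and 19 lower, where 26.8% of all genes tested were called, 6.44% higher and 20.4% lower. The median was -0.57 units against 0.00 over all genes tested. Of the 38 with at least 10 reads in both libraries 13 were called, against 34.4% of all such genes, and their median was -0.64 units against -0.42, so among well-counted genes the list lay near the background. With median-ratio scaling the split was 7 higher and 8 lower, against 12.9% and 11.4% of all genes tested. With TMM scaling it was 7 higher and 9 lower, against 11.3% and 13.4%. By role and on the TPM scale, 2 of 4 RAS-related GTPases, 2 of 9 adaptors and exchange factors, 1 of 3 RAS-processing enzymes, 3 of 6 scaffolds and 2 of 6 ERK phosphatases were called lower and none of these higher. With median-ratio scaling the GTPases, the processing enzymes and the phosphatases each had 1 called higher and 1 lower, and 1 adaptor and 1 scaffold were called lower. Among 7 inhibitors of the cascade 1 was called higher and 1 lower, and of 6 ERK substrates 1 was called higher. All 4 GTPase-activating proteins, which switch RAS off, were called lower in RM, with RASA1 at -1.70 units and RASA2 at -1.40, followed by RASA3 at -1.14 and NF1 at -1.09. They stayed below LD under every scaling, and RASA1 alone was called with median-ratio or TMM scaling.

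ARAF was lower in RM by 1.72 units. ICMT, which methylates the lipidated end of RAS, was lower by 1.73 units. Among 9 transcripts known to follow ERK activity 1 was called higher and 3 lower. ETV4, an ETS transcription factor, had 122 reads in LD, 73 with IL-6, 91 with IL-8, 427 with RM and 2 for HD. Its level in RM was 264 TPM against 57.1 in LD, a ratio of 4.62 (3.77 to 5.69), and 1.68% of genes tested were as high or higher. EMP1, a membrane glycoprotein gene, was lower in RM by 1.45 units, FOSL1, an AP-1 subunit, by 1.08 and ETV5, the ETS gene related to ETV4, by 1.16. None of those 3 was called with median-ratio or TMM scaling, whereas ETV4 was called at 2.92 and 2.76 units. SPRED3, of a family of inhibitors that act on RAS and RAF, was higher in RM by 1.29 units. CCND1, the cyclin D1 gene, stood at 2765 TPM in LD and 3012 TPM in RM.

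The ERK phosphatases related to DUSP6 did not move together. DUSP4 had 270 reads in LD, 66 with IL-6, 107 with IL-8, 170 with RM and 5 for HD. DUSP2 had 52 reads in LD, 3 in RM and 0 in the other libraries. DUSP5 had 52 reads in LD and 22 in RM, and its level was 70.9 TPM in HD against 14.8 in LD. DUSP6 and DUSP9 had at most 1 read in each low-density library, and SPRY1, another inhibitor gene of the cascade, had at most 1 read in every library.

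With either cytokine alone fewer of the 57 genes were called, 8 in IL-6 (4 higher and 4 lower, against 17.3% of genes tested) and 11 in IL-8 (3 higher and 8 lower, against 24.4%), with medians of -0.12 and -0.31 units. With median-ratio scaling the IL-8 split turned to 8 higher and 5 lower, beside 12.1% and 10.7% of all genes tested. In RM against IL-6 there were 26 calls, 7 higher and 19 lower, where 6.34% of all genes tested were called higher and 22.7% lower. In RM against IL-8 there were 13, 5 higher and 8 lower, where 9.87% were called higher and 14.9% lower. With median-ratio scaling the counts were 11 higher and 6 lower against IL-6, beside 12.5% and 12.6% of all genes tested, and 8 higher and 6 lower against IL-8, beside 13.5% and 13.4%.

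Between HD and LD, 40 of the 57 genes were called, 21 higher and 19 lower, against 61.9% higher and 17.9% lower over all genes tested, and the median was 0.25 units against 1.86. Of the 42 that reached 1 TPM in all 5 libraries, 11 were called higher and 17 lower, against 28.7% and 36.2% of all such genes. Under that filter the list thus lay near the background. Among genes with at least 10 reads in both libraries, 10 of 24 were called higher and 5 lower, against 47.3% and 21.9% of all such genes, with a median of 0.48 units against 0.83. Over the 57 genes median-ratio scaling gave 16 higher and 23 lower, against 57.3% higher and 21% lower over all genes tested. TMM scaling gave 10 higher and 26 lower, against 48.6% and 27.3%. Among the roles, 4 of 6 scaffolds and 4 of 6 ERK phosphatases were called higher, a share near that of all genes tested, and with TMM scaling these became 2 and 1. Of the 9 ERK-following transcripts 1 was called higher and 4 lower, and with TMM scaling 0 and 6. The genes of at least 10 reads in both libraries that were higher in HD by the most were RASGRP3, a RAS exchange factor, at 6.47 units, the phosphatase DUSP7 at 3.40, the ERK-activated kinase RPS6KA3 at 2.64, the scaffold KSR1 at 2.61 and the inhibitor SPRED1 at 2.47. RASGRP3 had 184 reads in HD and 10 to 19 in the low-density libraries. Those lower by the most were MKNK2, a kinase activated by ERK, at -3.29, the scaffold IQGAP1 at -2.70, CCND1 at -2.30, the adaptor GRB2 at -2.21 and FOSL1 at -1.53. All 10 kept their direction and their call under each scaling. PTPRC, a leukocyte gene, had 36 reads in HD and at most 2 in the others, and its part and that of the other markers in these differences was not tested.

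**Figure D4:**
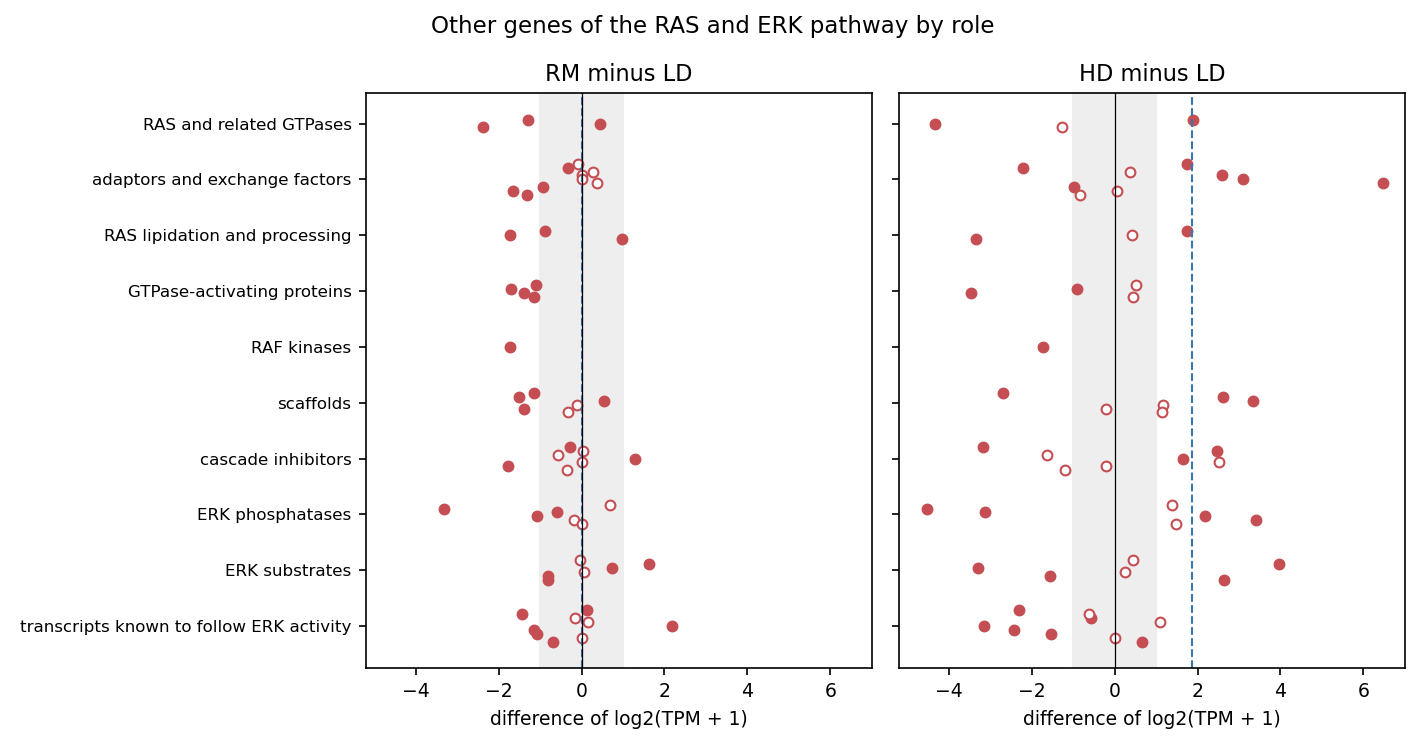
Differences of 54 of the 57 other genes of the pathway in log2(TPM + 1) units, grouped by role, for RM minus LD and HD minus LD; each point is 1 gene, filled where the 95% count interval of the ratio excludes 1, with the dashed line at the median of all genes tested. All 4 GTPase-activating proteins lie below -1 in RM, where ETV4 at 2.19 is the point farthest to the right.

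For each well-counted cascade gene, the genes nearest in pattern were those whose log2(TPM + 1) profile, centred on its mean, deviated least from its own at the library where the 2 profiles were farthest apart. Over the 5 libraries and 3597 genes with at least 10 reads in each, NRAS was matched most closely by SERBP1 (0.19 units) and SF3B3 (0.23), HRAS by SLC25A3 (0.12) and RAC2 (0.13), and MAP2K2 by C20orf27 (0.10) and RPL28 (0.18). Over the 4 low-density libraries and 6142 genes they were POC5 (0.05) and CEP128 (0.08) for NRAS, ULK3 (0.03) for HRAS, FAU (0.04) and PPP1R13L (0.05) for MAP2K2, and CTR9 and AHNAK2 (both 0.04) for MAPK3. No gene was named on both lists for NRAS, HRAS or MAP2K2. The deviations were not set against counting error, which for NRAS in RM spanned 2.25 to 5.45 TPM on 22 reads. MAP2K1, BRAF and DUSP6 had too few reads to be matched.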

How the data were processed

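RNA from HT1080 cells in collagen was sequenced with 50-base single-end reads after oligo-dT priming, amplification of the whole cDNA pool with phi29 polymerase and tagmentation. Per the submitters' processing notes, CASAVA 1.4, Bowtie2 2.3.1, RSEM 1.2.25, GRCh37 and hg19 were named; roles beyond alignment (Bowtie2) and quantification (RSEM) are not given in the sources used here. For every library the authors deposited, gene by gene, TPM together with a read count in whole numbers; no library was pooled, and any rounding of the counts is not stated. TPM was brought to a sum of 1000000 in each library here.

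Samples were grouped by their titles, with 1 library per condition and 6 comparisons. Differences are of log2(TPM + 1), a pseudocount of 1, over 21163 genes that reached 1 TPM in any library; a gap of 1 unit or more counts as called. All 7 cascade genes and 57 of 58 listed pathway genes were matched by symbol and passed (FNTB was not matched), as were 14 of 15 markers. Intervals are exact Poisson, conditional binomial or Clopper-Pearson intervals at 95% on read counts and cover counting error only. Positions, transcripts and sequences are from GENCODE 29 on GRCh38, matched by symbol, which is not the build named by the submitters. The members and lists were chosen with earlier results of these data known.

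Pathway genes were named where at least 10 reads were counted in both libraries, the call was made and the interval excluded 1, up to 5 per direction in RM and HD against LD; ARAF was always named, and some genes, and results that need them, are not reported here. For RM, RASA3, NF1, ETV5, FOSL1, CCND1, DUSP2, DUSP4, DUSP5, DUSP9, SPRY1 and, for HD, PTPRC, were chosen after their values were seen. The nearest patterns needed at least 10 reads in every library compared. Alternatives were pseudocounts of 0.1 and 5, other filters, median-ratio and TMM scaling, RNA5-8S5 left out, CPM, a threshold of 2 units and shares by reads; at least 10 reads in both libraries was added after the data were seen. Simulated counts with known ratios served to check the code. TMM factors came from edgeR 4.0.16 in R 4.3.3, and the rest from scipy 1.17.1, numpy 2.4.6 and pandas 2.3.3 under Python 3.11.15.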

Additional observations from a re-analysis of the deposited data

How the results depend on the processing

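No paired analysis was possible because each condition has 1 library, and for the same reason no replicate could be left out. Differences of the 7 cascade genes were retaken under other pseudocounts and scalings, 252 in all. Of these, 229 moved from the main value by no more than the wider arm of its count interval on the log2 scale. Another 23 moved further, and 0 called differences reversed. Because the wider arm was used, a value among the 229 can still lie outside the interval. DUSP6 had a library at 0 reads in every comparison, so it could not be counted as moved further. The counts of called cascade genes that moved were, with a pseudocount of 0.1, 2 each in IL-6, IL-8 and RM against IL-8. Over all genes tested that pseudocount called 32.1, 39.6 and 39.8%. With a pseudocount of 5 the counts were 0 in IL-6 and 0 in IL-8, beside 5.08 and 9.52% of all genes tested. With median-ratio or TMM scaling the count was 0 in IL-8, beside 22.8 and 23.6% of all genes tested. With TMM scaling it was 7 in HD, beside 75.9%. When 10 TPM had to be reached in any library, or at least 1 TPM in all 5, the count was 0 in IL-6. Of all genes passing these filters, 18.7 and 15.7% were called. With a threshold of 2 units the count was 0 in IL-6, IL-8 and RM against IL-8, and 1 in RM. In that order 3.43, 5.51, 7.9 and 7.1% of all genes tested were called. With at least 10 reads in both libraries, added after the data were seen, the count was 0 in IL-6 and 2 in HD. It was 1 in RM against IL-6 and 0 in RM against IL-8. Of all such genes, 13.3, 69.2, 35.1 and 31.1% were called. Of the other pathway genes, a pseudocount of 5 left 3 calls each in IL-6 and IL-8, and 9 in RM. It left 11 in RM against IL-6 and 5 in RM against IL-8. Over all genes tested it called 5.08, 9.52, 11.9, 12.1 and 11.5%, in that order. A threshold of 2 units left 2, 1, 3, 24 (HD), 2 and 3 in the 6 comparisons. In the same order 3.43, 5.51, 7.1, 56.8, 7.11 and 7.9% of all genes tested were called. At least 10 reads left 3 of 42, 6 of 39, 13 of 38, 15 of 24 (HD), 14 of 36 and 6 of 35. All such genes were called in 13.3, 27, 34.4, 69.2, 35.1 and 31.1%. The same minimum of 10 TPM left 5 in IL-6 and 8 in RM against IL-8, beside 18.7 and 29.7% of all genes passing it. At least 1 TPM in all libraries left 3 in IL-6 and 7 each in IL-8 and RM against IL-8, beside 15.7, 30.3 and 33.9%. CPM left 4 in IL-6, beside 8.72%, and median-ratio scaling 17 in RM against IL-6, beside 25.2%. By reads in place of TPM, the HRAS share was 85.2% in LD, 92.4% with IL-6, 90.5% with IL-8, 95.2% with RM and 54.5% for HD and the MAP2K2 share 88.4, 90.8 and 91.6% in LD, IL-6 and IL-8, because reads are not divided by transcript length. The fewer genes that pass a stricter filter and the higher bar of a larger threshold or pseudocount lower the counts by construction; the cause of the other shifts was not tested. HD has 73 reads on the 7 genes, and counts of 7 reads or fewer limit MAP2K1 in RM and HD, MAPK3 in HD, BRAF outside IL-6 and DUSP6 outside HD.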
